A study of Mus musculus with 2 samples.

Results

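The genes of the cartilage collagens II, IX and XI were followed over the spots of mouse tibial fracture calluses. The 6 members, *Col2a1*, *Col9a1*, *Col9a2*, *Col9a3*, *Col11a1* and *Col11a2*, were taken by their symbols from the 19430 genes named in the count tables, and all of them were detected. The measurements were Visium spatial transcriptomes, in which pairs of gene-specific probes bound to fixed tissue are captured on an array of spots and counted as unique molecular identifiers (UMIs), so that a count stands for 1 captured probe molecule. The calluses came from fractures of the distal tibia, taken 10 days after injury from control and Nf1Postn mice, which were female littermates of 8 weeks. The control mouse was *Nf1*+/flox without Cre, while the Nf1Postn mouse was *Postn*-cre;*Nf1*flox/-, so that 1 *Nf1* allele was missing from all of its cells and the floxed allele was removed where the *Postn* promoter, active in the periosteum, had driven Cre. Both calluses lay in the same paraffin block after decalcification for 3 days in 14% EDTA, and 2 sections of that block were measured. The labels number the sections as biological replicates, whereas the design text has a pair of calluses in the block, which is read here as 1 mouse per genotype although no source states the number of mice. Sections were accordingly not counted as separate animals, and no test between genotypes was run.

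Collagen II, a homotrimer encoded by *Col2a1*, forms the bulk of the thin fibrils of cartilage. Collagen XI, built from the chains of *Col11a1*, *Col11a2* and a form of the *Col2a1* chain, lies in the core of these fibrils and takes part in starting them and limiting their width, and its chains also mix with those of collagen V in other tissues. Collagen IX, a heterotrimer of the *Col9a1*, *Col9a2* and *Col9a3* chains, does not form fibrils itself but sits on their surface and links them to other matrix. In fracture repair these collagens are laid down by chondrocytes of the soft callus, which later enlarge, express *Col10a1* and give way to woven bone.

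By the coordinates of the count tables, in the mm39 assembly named in the submitters' processing notes, *Col2a1* (ENSMUSG00000022483) lies at chr15:97873483-97902576 and is the only member that was measured for collagen II. The collagen IX genes lie at chr1:24216691-24291765 (*Col9a1*, ENSMUSG00000026147), chr4:120896582-120912519 (*Col9a2*, ENSMUSG00000028626) and chr2:180239583-180263982 (*Col9a3*, ENSMUSG00000027570). The collagen XI genes lie at chr3:113824189-114014367 (*Col11a1*, ENSMUSG00000027966) and chr17:34258411-34285659 (*Col11a2*, ENSMUSG00000024330). The 6 genes are thus on 6 different chromosomes. RefSeq promoters, taken as the 250 bases before a start site in GRCm38.p6, were given for 4 of the 6 members, and those of *Col9a2*, which followed cartilage closely, and of both collagen XI genes, which followed it less, are printed on the gene's strand (plus in each case). Capitals mark the GC box GGGCGG, searched on both strands, and the TATA box TATAAA, searched on the gene's strand.
Col9a2 (chr4:121039316-121039565): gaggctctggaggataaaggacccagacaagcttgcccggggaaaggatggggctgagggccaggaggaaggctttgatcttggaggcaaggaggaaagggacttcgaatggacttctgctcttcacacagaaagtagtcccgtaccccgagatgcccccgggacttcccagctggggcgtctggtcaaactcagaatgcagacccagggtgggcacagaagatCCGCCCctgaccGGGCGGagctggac
Col11a1 (chr3:114030290-114030539): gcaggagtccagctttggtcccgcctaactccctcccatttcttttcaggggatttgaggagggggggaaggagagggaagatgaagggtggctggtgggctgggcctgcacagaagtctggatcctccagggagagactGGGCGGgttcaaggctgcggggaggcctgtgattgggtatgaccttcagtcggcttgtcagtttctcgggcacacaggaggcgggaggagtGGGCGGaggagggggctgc
Col11a2 (chr17:34038888-34039137): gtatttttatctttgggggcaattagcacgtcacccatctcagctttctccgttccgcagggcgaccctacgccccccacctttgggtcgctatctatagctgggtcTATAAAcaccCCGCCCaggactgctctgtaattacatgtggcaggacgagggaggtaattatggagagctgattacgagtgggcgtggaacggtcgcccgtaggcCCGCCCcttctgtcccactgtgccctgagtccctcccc
Each of these promoters held 2 GC boxes, which began 26 and 14 bases before the start in *Col9a2*, 110 and 19 in *Col11a1*, and 133 and 38 in *Col11a2*. The promoters of *Col9a1*, given for 2 start sites and not printed, held no GC box. The TATA box was found in *Col11a2* alone, 143 bases before the start. The letters ACAAAG or ACAATG, a core that SOX factors such as SOX9 can bind, were in none of the 3. Of all 32851 promoters in the table, 32.7% held the GC box, 7.59% the TATA box and 25.2% the SOX core, and a match of letters is a description and not a binding site.

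The control callus covered 1700 spots in section 1 and 1778 in section 2, and the Nf1Postn callus 1341 and 1556, out of 6380 spots of which 5 carried no genotype. Spots were 0.1 mm apart. The median depth was 7053 and 5718 UMIs per spot in the control callus against 2030 and 3240 in the Nf1Postn callus, and the groups held 13562254, 12122419, 3462224 and 5984157 UMIs. Levels are therefore given as CPM, the UMIs of a gene divided by all UMIs of the pooled spots of a group and scaled to 1000000, with exact 95% Poisson intervals that cover counting error only. The targeted gene *Nf1* stood at 87.8 and 79.0 CPM in the control and at 65.6 and 49.6 CPM in the Nf1Postn callus (sections 1 and 2), a log2 ratio of -0.42 and -0.67, and the position of its probes relative to the deleted part is not given in the sources used here. Skeletal muscle genes made up 1.39% and 2.27% of the control UMIs and 6.52% and 11.4% of the Nf1Postn UMIs, so the tissue captured with each callus differed as well. The 2 sections shared 2711 spot barcodes, which are array positions and not shared cells.

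The 6 collagen genes together took 4.93% of all UMIs of the control callus in section 1 and 3.14% in section 2, against 0.516% and 0.926% in the Nf1Postn callus. In both sections every member was lower in the Nf1Postn callus than in the control callus. The control values of each of the 6 members lay above both of its Nf1Postn values, but so did those of 4251 of 11851 genes (35.9%), so the lack of overlap alone says little about the members. In these bulk spots, fewer cells that express a gene and less RNA per cell cannot be told apart.

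*Col2a1* stood at 39616 CPM (95% interval 39510 to 39722) and 25051 CPM (24962 to 25140) in the control callus. In the Nf1Postn callus it was 3054 CPM (2996 to 3112) and 6714 CPM (6649 to 6780). It was thus 13.0-fold lower in section 1 and 3.73-fold lower in section 2, a gap between sections far wider than the counting error. The spread between sections of the same callus was 1.58-fold in the control and 2.20-fold in Nf1Postn, in opposite directions.

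For collagen IX, *Col9a1*, whose chain carries the globular domain that projects from the fibril, stood at 2797 and 1602 CPM in the control and at 551.4 and 867.6 CPM in the Nf1Postn callus. *Col9a2* stood at 1683 and 1019 CPM against 266.6 and 378.8 CPM. *Col9a3* stood at 2060 and 1160 CPM against 210.6 and 368.8 CPM. Like *Col2a1*, all 3 were higher in section 1 than in section 2 of the control callus and lower in section 1 than in section 2 of the Nf1Postn callus. The collagen XI genes repeated more closely in the control callus, where *Col11a1* differed 1.145-fold and *Col11a2* 1.285-fold between sections. In the Nf1Postn callus *Col11a2* differed 1.07-fold, but *Col11a1* differed 1.42-fold, as did *Col9a2*. *Col11a1* stood at 883.2 and 771.4 CPM in the control and at 336.8 and 237.5 CPM in the Nf1Postn callus. *Col11a2* stood at 2257 and 1756 CPM against 738.0 and 690.8 CPM.

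**Figure D1:**
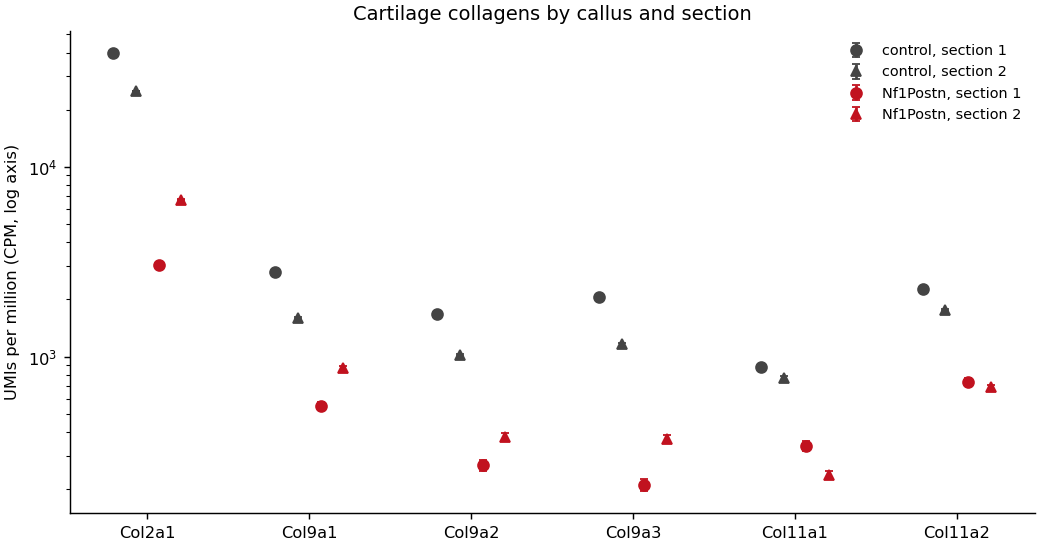
Level of each collagen gene in CPM (log axis) by callus and section. Circles are section 1 and triangles section 2, grey is control and red Nf1Postn, bars are exact 95% Poisson intervals, and levels of different genes are not comparable because probe pairs differ in yield. For each gene both red symbols lie below both grey ones, and for *Col2a1* the red symbols are at 3054 and 6714 CPM.

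Pooled over sections, the log2 ratio of Nf1Postn to control was -2.61 for *Col2a1*, -1.57 for *Col9a1*, -2.02 for *Col9a2*, -2.40 for *Col9a3*, -1.60 for *Col11a1* and -1.51 for *Col11a2*, with a median of -1.81 where all 11851 genes with enough counts had a median of -0.09. A gene was counted as past the fold when it differed at least 2-fold the same way in both sections with at least 50 UMIs in each. By this rule 5 of the 6 members were lower and 0 higher, where 187 of the 11851 genes (1.58%) were lower and 499 (4.21%) higher. *Col9a1* was not past the fold, since it differed 5.07-fold in section 1, where its Nf1Postn level was no higher than in muscle-rich spots, but 1.85-fold in section 2. Muscle moved with this count. Without the 1433 spots in which muscle genes gave at least 10% of UMIs, a limit chosen after the values were seen, only *Col2a1* was past the fold among the members (2.005-fold in section 2), with *Col11a1* (1.99-fold) and *Col9a3* (1.98-fold) just short of it in section 2, and 56 of 11663 genes (0.48%) were. All 6 members were still lower in the Nf1Postn callus in both sections without those spots, with log2 ratios in section 1 between -1.16 (*Col11a1*) and -3.60 (*Col2a1*), and in section 2 of -0.36 for *Col9a1* and -0.72 for *Col11a2*, -0.81 for *Col9a2* and -0.99 for *Col9a3* and *Col11a1*. The 7 muscle genes, with a median log2 ratio of 2.43, and the 3 globin genes measured, with 2.96, were higher past the fold in the Nf1Postn callus. What part these tissues and the lower depth had in the collagen ratios was not tested.

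Other genes of cartilage were lower as well. Of the matrix partners fixed as a list, 8 of 8 with enough counts were lower past the fold with a median log2 ratio of -2.66, while *Epyc* had too few counts (pooled 0.44). Among the 8 were *Acan*, which encodes the large proteoglycan aggrecan, and *Hapln1*, whose link protein ties aggrecan to hyaluronan. Of the chondrocyte transcription factors, *Sox9* (-2.47) and *Sox5* (-1.20) were lower past the fold and *Sox6* (-0.30) was not. Of the hypertrophy genes, *Col10a1* (-2.73), the collagen of enlarged chondrocytes, *Ihh* (-2.26), the hedgehog signal of prehypertrophic cells, and *Pth1r* (-1.32), the receptor of parathyroid hormone and its related protein, were past the fold, while *Mmp13* (-1.24), a collagenase, was not. By contrast, 0 of the 8 other fibril-forming collagens were past the fold, with a median of -0.67 and a range from -1.13 (*Col27a1*, a fibrillar collagen also made by cartilage) to 0.22 (*Col5a3*). *Col1a1*, of bone and fibrous tissue, stood at -0.93 and *Col3a1* at -0.10. The 5 genes that trim procollagens, such as *Bmp1* and *Adamts2*, had a median of -0.34, with 0 past the fold. Genes of bone and of its resorption had lower values too. Of the bone markers 4 of 7 were past the fold, with a median of -1.25 and values such as -1.57 for *Alpl* and -1.38 for *Sp7*, a transcription factor of osteoblasts. Of the osteoclast markers 2 of 4 were, with a median of -1.51, among them *Acp5* (-1.95), an acid phosphatase, and *Mmp9* (-1.69). These sizes are near those of *Col11a1* and *Col11a2*, so lower values were not particular to cartilage.

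Nearly every control spot held at least 1 UMI of *Col2a1* (99.9% and 100%), as did 96.5% and 97.6% of Nf1Postn spots, so its presence in a spot said little. To set shares of spots side by side at equal depth, each spot with at least 1000 UMIs was thinned at random to 1000. *Col2a1* was then found in 97.1% and 94.9% of control and 85.0% and 78.7% of Nf1Postn spots. *Col9a3* was found in 52.2% and 46.6% against 16.7% and 24.4%, and *Col9a2* in 51.4% and 47.0% against 23.4% and 25.9%. *Col11a1* was found in 50.8% and 48.5% against 22.7% and 20.9%, and *Col11a2* in 71.2% and 68.6% against 45.8% and 42.7%. Thinning left out 45 and 83 control and 215 and 113 Nf1Postn spots. In muscle-rich spots of the Nf1Postn callus, where the proteoglycan genes gave at most 0.020% of UMIs, *Col2a1* was still seen before thinning in 95.8% and 96.9% of spots at 1945 and 1377 CPM and *Col9a1* in 66.8% and 80.4% at 650.0 and 508.8 CPM. The *Col9a1* level of the whole Nf1Postn callus in section 1, 551.4 CPM, was below that of its muscle-rich spots and cannot be told from background by that measure. Muscle-rich spots are not a floor, however, since spots rich in bone genes there held 430.9 CPM of *Col9a1*. *Col9a2* and *Col9a3* stood little above the muscle-rich spots of section 1, at 266.6 against 222.8 CPM and 210.6 against 163.1 CPM. The section 1 ratios of the collagen IX genes are thus set against a level near that of muscle-rich spots. *Col2a1* stood at 3054 CPM in the whole Nf1Postn callus of section 1 against 1945 CPM in its muscle-rich spots. Its 13.0-fold ratio there is thus limited in the same way, though less.

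Within the control callus the members were not spread alike. The share of a spot's UMIs taken by the 6 genes had a median of 1.57% in section 1 and 1.29% in section 2 but reached 23.3% and 15.1% at the 95th percentile and 38.1% and 42.5% in the highest spot. In the Nf1Postn callus the medians were 0.494% and 0.394% and the 95th percentiles 2.10% and 1.76%, although the highest spots reached 27.3% and 36.6%. Thus the tops of the distributions came close, while the bulk and the upper tail were several-fold lower. Spots in which this share was at least 5% formed patches of at least 5 neighbouring spots. There was 1 patch of 418 spots in the control callus of section 1 and 4 patches in that of section 2. Each Nf1Postn section had a single small patch.

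**Figure D2:**
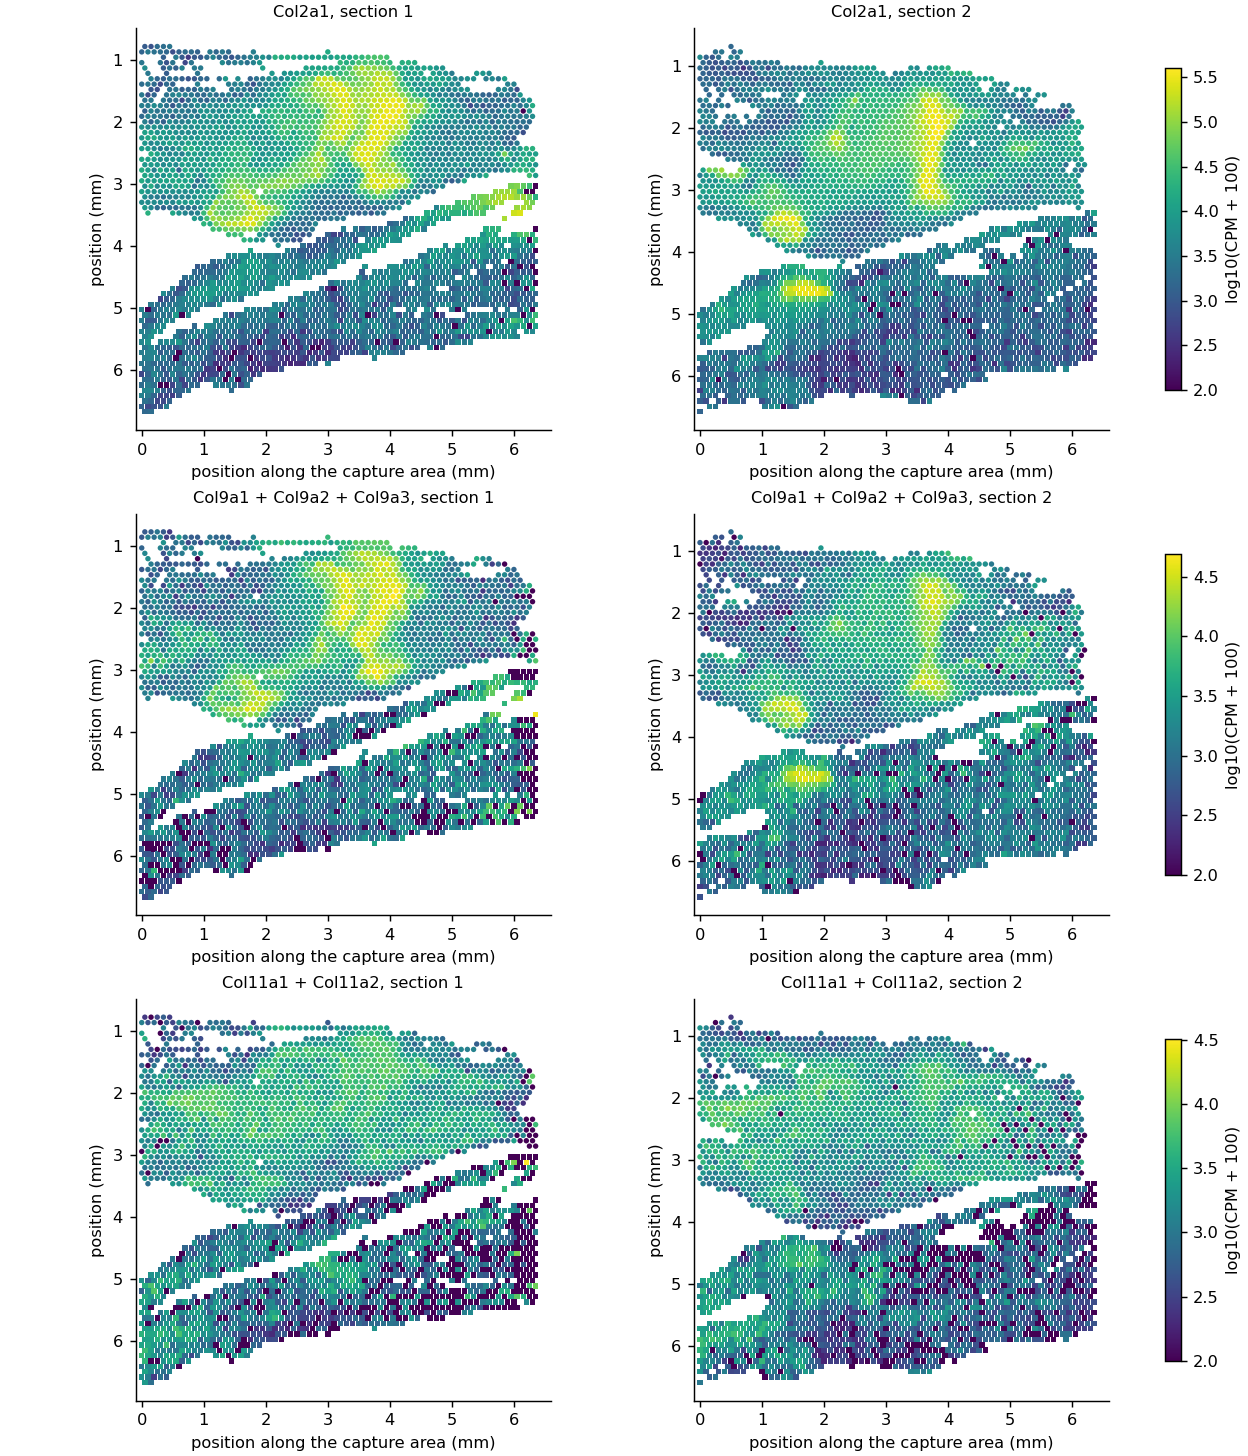
Maps of all spots with a genotype in sections 1 and 2, with position in mm on both axes and colour giving CPM on a log scale. Separate rows show *Col2a1*, the collagen IX genes together and the collagen XI genes together. Spots where the 6 genes gave at least 5% of UMIs form 1 patch in the control callus of section 1 and 4 in that of section 2. In each Nf1Postn section they form 1 small patch.

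The study assigned 1344 control spots of section 1 to skeletal clusters, which were formed from the whole transcriptome including these genes, so that levels by cluster are a description. *Col2a1* was highest in the 273 cartilage spots at 163478 CPM. It followed at 34088 CPM in the 409 spots of ossifying perichondrium, at 19243 CPM in the 466 of woven bone, at 9527 CPM in the 50 of distal cortical bone and at 7459 CPM in the 146 progenitor spots. The collagen IX genes were also highest in cartilage, at 10708 CPM for *Col9a1*, 5030 CPM for *Col9a2* and 6749 CPM for *Col9a3*, and second in ossifying perichondrium, at 2724, 2068 and 2453 CPM. In woven bone they stood at 1052, 631.9 and 714.9 CPM, close to progenitor spots at 1048, 655.9 and 601.5 CPM. Cartilage was thus 8.50-fold above woven bone for *Col2a1*, 10.2-fold for *Col9a1*, 7.96-fold for *Col9a2* and 9.44-fold for *Col9a3*.

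The collagen XI genes were ordered differently. *Col11a1* was highest in ossifying perichondrium (997.9 CPM) and woven bone (986.8 CPM), whose intervals overlapped, followed by cartilage at 836.7 CPM, distal cortical bone at 637.4 CPM and progenitor spots at 468.3 CPM. *Col11a2* was highest in cartilage at 3676 CPM, followed by woven bone at 2904 CPM, ossifying perichondrium at 1849 CPM, distal cortical bone at 1568 CPM and progenitor spots at 771.0 CPM. Cartilage over woven bone was 0.848-fold for *Col11a1* and 1.27-fold for *Col11a2*. Because *Col2a1* alone took a large part of all UMIs in cartilage, which lowers the CPM of every other gene there, the ratios were also taken on totals without it, and were then 0.994-fold and 1.48-fold, against 11.9-fold, 9.33-fold and 11.1-fold for *Col9a1*, *Col9a2* and *Col9a3*.

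The same split appeared along the axis of the callus. Distance was measured from the 34 spots that the study placed on the fracture plane, and the spots fell into bins of 348, 347, 305, 232 and 112 spots, each 0.5 mm wide. *Col2a1* stood at 84249, 44748, 17967, 9065 and 4877 CPM from the plane outward. *Col9a1* went from 6025 to 506.4 CPM, *Col9a2* from 3665 to 215.4 CPM and *Col9a3* from 4689 to 237.2 CPM, each with a lower value in every further bin. Muscle-rich spots of the control callus in section 1 held 491.7, 207 and 167.2 CPM of these genes. The farthest values of *Col9a1* and *Col9a2* thus lay near this level and may in part be background. The level is not a floor, since on the right side of the plane the farthest bin held 465.6 and 177.4 CPM of them. *Col11a1* stood at 970.8, 927.2, 951.1, 928.2 and 757.6 CPM. *Col11a2* stood at 2623, 2238, 2519, 2150 and 1737 CPM. Of the spots in these bins, 36.8%, 29.1%, 12.5%, 2.59% and 0% were in the cartilage cluster.

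Set as spots at 1.5 mm or more over spots under 0.5 mm, the levels were 10.8-fold lower for *Col2a1*, 9.66-fold for *Col9a1*, 10.4-fold for *Col9a2* and 14.1-fold for *Col9a3*, but 1.11-fold lower for *Col11a1*, with a log2 ratio of -0.15, and somewhat more for *Col11a2*, with -0.37. So 4 of the 6 members were lower by at least 2-fold, where 380 of 11214 genes (3.39%) were. The median log2 ratio over all genes was 0.14. *Acan* went from 3569 CPM in the nearest to 316.6 CPM in the farthest bin and *Sox9* from 1226 to 137.2 CPM, and 8 of 9 cartilage partners (all but *Epyc*, which had few counts) and 3 of 3 transcription factors were lower past the fold. *Col10a1* was highest in the bin from 0.5 to 1 mm, at 762.8 CPM against 252.8 CPM nearer, and *Bglap*, the osteocalcin of bone, went from 274.3 to 4234 CPM. Of the other fibril-forming collagens 1 of 8 was lower past the fold, *Col27a1* with a log2 ratio of -1.96, while *Col1a1* stood at 0.65 and *Col1a2* at 0.94.

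The flat course of the collagen XI genes held on 1 side of the plane only. On the left side *Col11a1* went from 968.0 CPM in the nearest to 1056 CPM in the farthest bin and *Col11a2* from 2261 to 2646 CPM. On the right side *Col11a1* went from 973.5 to 482.9 CPM and *Col11a2* from 2960 to 899.3 CPM. *Col2a1* went down on both sides, from 63629 to 6687 CPM on the left and from 103371 to 3208 CPM on the right, so that it differed more than the collagen XI genes on either side.

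**Figure D3:**
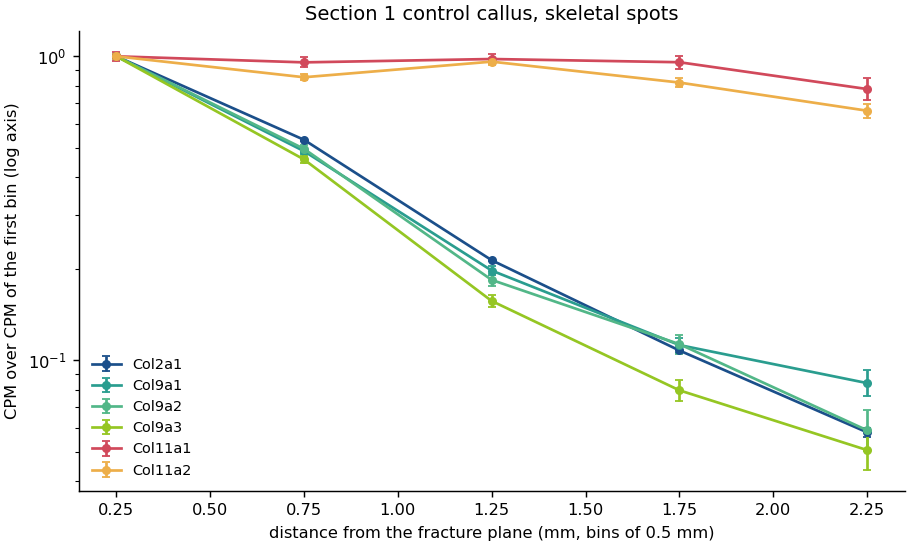
Level of each collagen gene relative to its level in the nearest bin (log axis) in section 1 of the control callus by distance from the fracture plane in mm, in bins of 0.5 mm. Points are pooled CPM and bars exact 95% Poisson intervals, both divided by the pooled CPM of the nearest bin. Before this division *Col2a1* goes from 84249 to 4877 CPM and *Col11a1* stays between 757.6 and 970.8 CPM. The collagen IX genes run alongside *Col2a1*.

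Steps away from the edge of the cartilage spots gave a finer scale. They took in all control spots of a section, whereas the distance bins held only spots of the skeletal clusters. In section 1, spots next to a cartilage spot held 39.1% of the *Col2a1* level inside, 38.8% of that of *Col9a1*, 50.6% of *Col9a3* and 59.3% of *Col9a2*, and 66.7% of *Col11a2* and 122% of *Col11a1*. Beyond 10 steps (1 mm), 2.50% of *Col2a1* was left against 66.0% of *Col11a1* and 39.2% of *Col11a2*. In section 2, where spots rich in proteoglycan genes took the place of the cartilage cluster, the first step held 26.7% of *Col2a1*, 76.3% of *Col11a1* and 46.3% of *Col11a2*, and beyond 10 steps 1.63%, 41.1% and 22.3% were left. Each spot covers many cells, so a step at an edge is a mixture and not a level per cell.

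Since the yields of probe pairs differ, the members were set against each other through their mix, the share of each family in the UMIs of all 6 genes, which can be compared between places. In the cartilage cluster collagen II gave 85.8%, collagen IX 11.8% and collagen XI 2.37%, and in woven bone 75.4%, 9.40% and 15.2%. Along the distance bins the share of collagen XI was 3.52%, 5.77%, 14.4%, 22.6% and 29.9%, while collagen IX stayed between 10.8% and 14.1%. Over whole calluses, collagen XI gave 6.37% and 8.06% in the control against 20.8% and 10.0% in the Nf1Postn callus. The difference for collagen XI was 14.5 percentage points in section 1 and 1.97 points in section 2, so its size rested on the section. The share of collagen IX was higher in the Nf1Postn callus as well, at 19.95% and 17.45% against 13.27% and 12.06% in the control. By the kinds of spots described below, it was higher in bone-rich, muscle-rich and other spots. It was lower in proteoglycan-rich spots, at 6.045% (of only 579 UMIs) and 10.05% against 13.37% and 10.69%. Muscle-rich Nf1Postn spots had the largest shares, 30.3% and 32.21%, and their part in the whole-callus share was not tested.

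**Figure D4:**
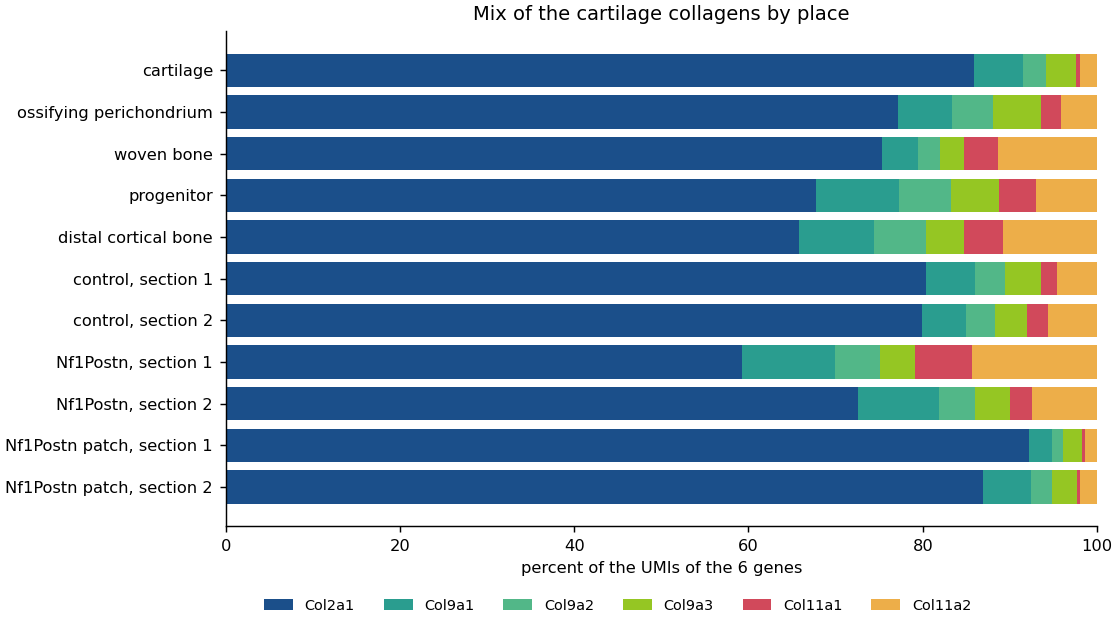
Share of each collagen gene in the UMIs of all 6 genes (%), drawn as stacked bars from 0 to 100% for clusters, whole calluses and the collagen-rich patches of the Nf1Postn callus. Collagen XI takes 2.37% in the cartilage cluster and 15.2% in woven bone.

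To compare genotypes in like tissue without using the members, spots were called proteoglycan-rich when at least 0.448% of their UMIs came from the 9 partners, the lower quartile of the study's cartilage spots. This took 312 and 175 control spots (18.4% and 9.84%) and 15 and 20 Nf1Postn spots (1.12%, exact binomial 95% interval 0.627 to 1.84, and 1.29%). In section 1 the 15 Nf1Postn spots had a median of only 322 UMIs, and 0 of them reached 1000, whereas 18 of the 20 in section 2 did. Levels there are accordingly read from section 2. Most of the *Col2a1* UMIs of its Nf1Postn spots came from 1 patch near control spots, described below. That patch held 63.0% of the *Col2a1* UMIs of the Nf1Postn callus in section 2. It also held all 30 Nf1Postn spots of section 2 in which the 6 genes gave at least 5% of UMIs. The comparison thus rests largely on the patch being Nf1Postn tissue. *Col2a1* stood at 142284 CPM in control and 206928 CPM in Nf1Postn spots, and *Col9a1* at 7037 against 12407 CPM. *Col9a2* (4547 and 4830 CPM), *Col9a3* (5966 and 6374 CPM) and *Col11a2* (3356 and 3898 CPM) differed by at most 1.16-fold. *Col11a1* was at 1020 CPM in control and 481.0 CPM in Nf1Postn spots, 2.12-fold lower, and *Acan* was 2.49-fold lower. *Acan* is 1 of the 9 partners by which these spots were chosen, so its ratio there depends on that choice. In section 1 all 6 members were lower in the Nf1Postn spots, by 1.55-fold for *Col2a1* to 5.07-fold for *Col9a1*, on 4 to 530 UMIs. In these spots the direction thus changed between sections for 5 of the 6 members, although for *Col9a2* and *Col9a3* the interval of the ratio in section 2 included no difference.

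Bone-rich spots had at least 0.531% of UMIs from bone genes and were not proteoglycan-rich. They numbered 502 and 496 in the control and 161 and 116 in the Nf1Postn callus. Their bone share was 0.958% and 1.03% against 0.926% and 0.833%. Their limit was set from the lower quartile of the woven bone spots after the values were seen. *Col11a2* had 3101 and 3248 CPM in the control and 2327 and 2525 CPM in the Nf1Postn callus, 1.33-fold and 1.29-fold lower. *Col11a1* stood at 1131 and 1086 CPM against 581.7 and 653.5 CPM, 1.94-fold and 1.66-fold lower. *Col2a1* was 5.41-fold lower in section 1 but 1.22-fold lower in section 2, and the collagen IX genes were lower in section 1 and higher by 1.19-fold to 1.41-fold in section 2. Of all control UMIs of *Col11a1*, 37.2% and 38.2% came from bone-rich spots, and of *Col11a2* 39.9% and 50.1%, against 10.2% and 11.7% of *Col2a1*. Conversely proteoglycan-rich spots gave 73.7% and 62.1% of the *Col2a1* UMIs of the control callus and 26.5% and 14.5% of those of *Col11a1*. Spots past both the bone and the proteoglycan limit counted as proteoglycan-rich, so these shares depend in part on that order. They also depend on how many UMIs each kind of spot held. In CPM, *Col11a1* of the control callus was close between proteoglycan-rich (1081 and 1020) and bone-rich spots (1131 and 1086). *Col11a2* was higher in the proteoglycan-rich ones, at 3845 and 3356 CPM against 3101 and 3248 CPM. Spots rich in neither and poor in muscle were also lower in the Nf1Postn callus for every member, from 1.15-fold (*Col11a2* in section 2) to 4.18-fold (*Col2a1* in section 1).

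**Figure D5:**
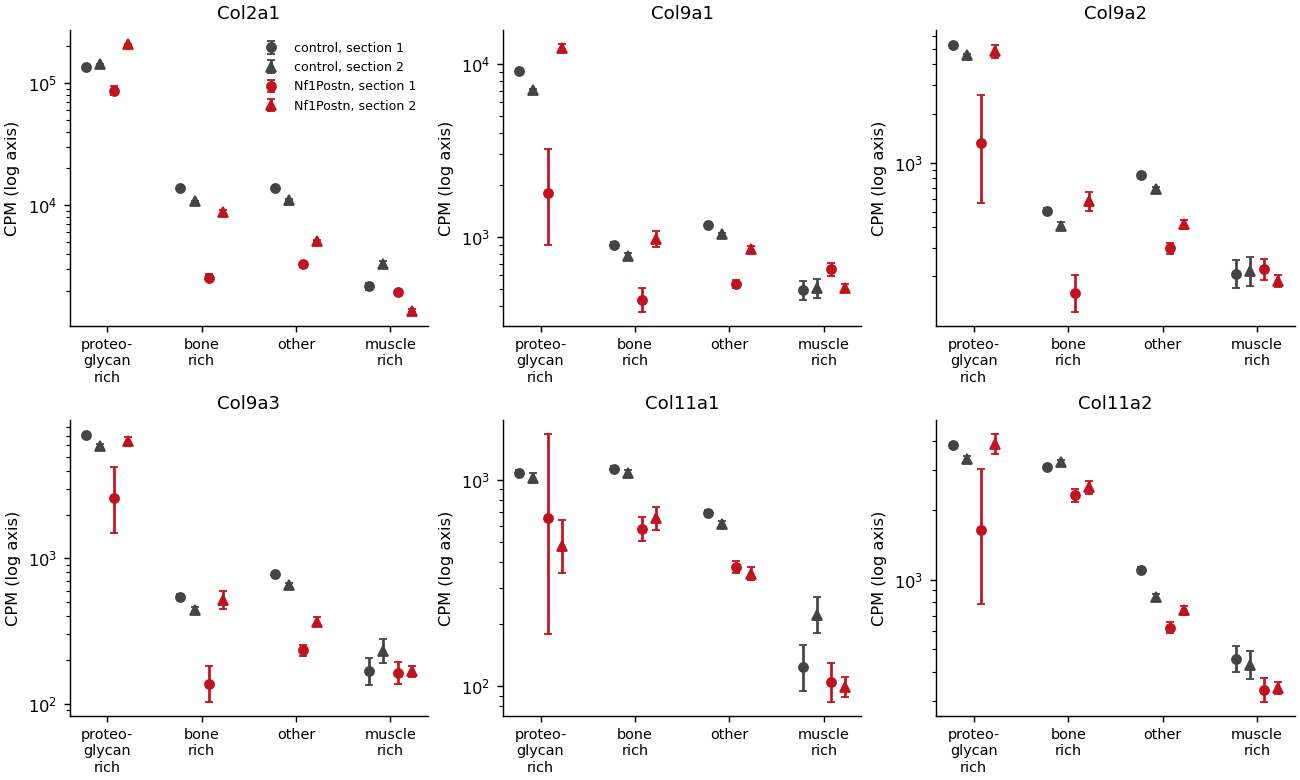
Level of each collagen gene (CPM, log axis) in proteoglycan-rich, bone-rich, muscle-rich and other spots by callus and section, with exact 95% Poisson intervals. In section 2 the proteoglycan-rich spots of both calluses lie within 1.16-fold for *Col9a2*, *Col9a3* and *Col11a2*, and muscle-rich spots are lowest for *Col2a1* in each group.

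Where the collagen-rich spots lay was described by patches, taken as at least 5 neighbouring spots in which the 6 genes gave at least 5% of UMIs, again a limit chosen after the values were seen. The control callus had 419 such spots (24.6%) in section 1, of which 418 formed 1 patch that held 80.4% of its *Col2a1* UMIs, and 238 (13.4%) in section 2 in patches of 160, 39, 19 and 9 spots. The Nf1Postn callus had 33 (2.46%) and 30 (1.93%), with 1 patch of 32 spots in section 1 and 1 of 30 in section 2. With a limit of 2% the shares were 40.9% and 33.4% against 5.15% and 4.24%, and with 10% they were 15.8% and 7.54% against 1.34% and 1.22%, so that the order held at each limit.

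The patch in section 2 of the Nf1Postn callus was well measured, with a median of 5702 UMIs per spot, and held 63.0% of the *Col2a1* UMIs of that callus. Because the 6 genes chose the patches, their high levels inside any patch follow in part from that choice. The *Col2a1* level of this Nf1Postn patch was 146983 CPM and that of *Col9a1* 9401 CPM. *Col2a1* in the control patches of both sections ranged from 76054 to 144298 CPM. *Col11a1* stood at 586.5 CPM, *Sox9* at 557.5 CPM and *Acan* at 1591 CPM, where the largest control patches had 1398 and 1628 CPM of *Sox9* and 4369 and 4753 CPM of *Acan*. *Col10a1* stood at 69.7 CPM on 12 UMIs, below the 167.5 to 1832 CPM of the control patches. The second control patch of section 2, of 39 spots, was near it in *Acan* (1222 CPM), *Sox9* (472.5 CPM) and *Col11a1* (616.2 CPM) but held 1114 CPM of *Col10a1*. These 2 patches were near each other, with 0.608 mm between their nearest spots, and the Nf1Postn patch began 0.361 mm from the nearest control spot. How the line between the calluses was drawn on the array is not given in the sources used here. The size of the *Col2a1* ratio of section 2 rests largely on this patch being Nf1Postn tissue. The patch lay far above the 6714 CPM of the whole Nf1Postn callus in that section. Without it the *Col2a1* level of that callus would thus be lower, and further below the control.

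The patch in section 1 of the Nf1Postn callus lay elsewhere, at the edge of the captured area and 0.20 mm from the nearest control spot, with a median of 541 UMIs per spot. It held 16.5% of the *Col2a1* UMIs of that callus, at 101791 CPM, and 0 UMIs of *Col10a1*, with an exact 95% Poisson interval up to 215.9 CPM. Without these 2 patches the Nf1Postn callus had no connected area rich in these collagens. Its sections also repeated each other less well. In squares of 0.5 mm at the same array positions, log2 levels of *Col2a1* correlated across sections at 0.80 over 66 control tiles and 0.42 over 59 Nf1Postn tiles, and those of *Col9a2* at 0.76 and -0.10, while *Col11a1* had 0.49 and 0.58. Sections were not aligned to each other, so these values mix tissue with placement.

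Among the control spots, enlargement of chondrocytes was followed through *Col10a1*. The 273 cartilage spots of section 1 were divided at their median of 1137 CPM of *Col10a1*. In the 137 spots above it every member was lower than in the other 136, with log2 ratios of -1.08 for *Col9a2*, -0.81 for *Col9a3*, -0.58 for *Col11a2*, -0.43 for *Col9a1*, -0.28 for *Col11a1* and -0.26 for *Col2a1*. The 175 proteoglycan-rich spots of section 2, divided at 203.1 CPM, gave 0.61 for *Col2a1*, 0.41 for *Col9a1* and 0.07 for *Col11a2*, and -0.06, -0.08 and -0.56 for *Col9a3*, *Col9a2* and *Col11a1*. Only for *Col9a2*, *Col9a3* and *Col11a1* was the direction the same in both sections, and for the first 2 of these the size in section 2 was near 0.

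The profiles of all genes with at least 500 UMIs were compared over 277 tiles of 0.5 mm (146 control, 131 Nf1Postn) as Pearson correlations of log2(CPM + 1). Tiles share libraries, depth and tissue, so the values are descriptions. *Col2a1* and *Col9a3* were closest to each other among the members (0.93), followed by *Col9a1* with *Col9a3* (0.91), *Col9a2* with *Col9a3* (0.88) and *Col2a1* with *Col9a1* (0.87). *Col11a1* correlated with *Col11a2* at 0.61 and with *Col2a1* at 0.43, and *Col11a2* with *Col2a1* at 0.66. These values pool tiles of both calluses, whose levels differ. In control and Nf1Postn tiles taken apart, *Col11a1* had 0.69 and 0.41 with *Col11a2*, and 0.45 and 0.11 with *Col2a1*. *Col11a2* had 0.57 and 0.53 with *Col2a1*, and *Col2a1* had 0.9461 and 0.8372 with *Col9a3*. In control tiles *Col9a1* and *Col9a3* were the closest pair (0.9525). Outside the members, *Col2a1* was most like *Comp* (0.84), a pentameric protein that binds collagen fibrils, then *Acan* (0.78), *Matn3*, *Hapln1* and *Cnmd*, which encodes chondromodulin. *Col9a1* and *Col9a3* had largely the same nearest genes, with *Snorc*, a proteoglycan of chondrocytes, in the list of *Col9a3*, and *Col9a2* was most like *Acan* (0.76) and *Wwp2* (0.74), a ubiquitin ligase gene, with *Comp*, *Cnmd* and *Emilin1* after them.

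The collagen XI genes had other neighbours. *Col11a1* was most like *Golim4* (0.76) and *Septin5* (0.75), followed by *Rcn3* (0.74), a calcium-binding protein of the endoplasmic reticulum, *Col1a1* (0.74) and *Serpinh1* (0.72), the collagen chaperone HSP47. *Col11a2* was most like *Alpl* (0.79), the alkaline phosphatase of mineralizing cells, followed by *Col1a2* (0.76), *Serpinh1* (0.76), *Col1a1* (0.71) and *Sparc* (0.71), the osteonectin of bone matrix. None of the 5 genes nearest to *Col2a1* was among the 5 nearest to either collagen XI gene, and with tiles of 1 mm 19 of the 30 pairs of member and gene stayed. Of each list of 5, 2 stayed for *Col11a1*, *Col11a2* and *Col9a3*, against 4 for *Col2a1* and *Col9a2* and 5 for *Col9a1*. *Golim4* and *Septin5* stayed for *Col11a1*, and *Col1a2* and *Serpinh1* for *Col11a2*, while *Col1a1* left both lists.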

How the data were processed

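Per the methods and the submitters' processing notes, the authors captured probe pairs on Visium slides and counted UMIs against mm39 with Space Ranger 1.3.0. The authors deposited the resulting UMI numbers for each spot, not normalized. The values deposited by the authors are handled as estimated counts, because entries that join several gene identifiers hold values that are not whole. They were rounded where spots were thinned. The authors also deposited genotype labels and spot positions, and their supporting values gave the cluster and SpatialTime of 1344 spots. 1 entry without a gene name (11.6 and 6.8 UMIs, 6.81e-05% and 3.75e-05% of the sections) and 5 spots without a genotype were left out. Replicates 1 and 2 in the labels are sections 1 and 2.

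Counts were pooled over spots and given as CPM with exact Poisson 95% intervals, shares of spots have exact binomial (Clopper-Pearson) 95% intervals, and log2 ratios of CPM exact conditional binomial intervals. The intervals of CPM and of ratios cover counting error of the pooled UMIs only and hold no spread between spots. Those of shares of spots treat spots as independent. None covers the spread between sections or mice. Python 3.11.15, numpy 2.4.6, scipy 1.17.1, pandas 2.3.3 and, for TMM factors, edgeR 4.0.16 in R 4.3.3 were used. With 1 mouse per genotype, as the design text was read, no test was run and no p-value is given. The members and lists were chosen with earlier results of these data known. Named are the members, Nf1, genes of the lists and, for each member, the 5 genes with the closest tile profile. The bone-rich, muscle-rich and patch limits, the division by Col10a1 and the distance rings were chosen after the values were seen. Bglap2 and Hba-a1, on the marker lists, were not analysed here. Tested on simulated data for the genotype ratio, with 200 of 11828 genes changed, 99.8% of ratios by section had the right sign, 95% of intervals held the true ratio and 96% of genes made 4-fold lower were called. The simulated counts had Poisson error only and the same true ratio in both sections, so the coverage of the intervals was built in. The wider spread between the real sections was not simulated.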

Additional observations from a re-analysis of the deposited data

How the results depend on the processing

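The members were lower in the Nf1Postn callus under each of 11 alternatives, and lower far from the fracture plane under each of 5. For the collagen XI genes the difference by distance was small. Its log2 ratio ran from -0.06 to -0.43 for Col11a1 and from -0.15 to -0.59 for Col11a2 under these alternatives. On the left side of the plane neither was lower in the farthest bin than in the nearest. The median log2 genotype ratio of the members, -1.81, ranged from -2.50 to -1.54 in single sections and was -3.49 as a mean over spots of log2(CPM + 1). The 187 genes past the fold became 337 with TMM factors and 56 without muscle-rich spots, and the 5 members became 1 in the latter; these spots hold much of the Nf1Postn callus. The median ratio by distance, -3.32, became -3.47 with limits of 1.0 and 2.0 mm, -2.85 as a mean over spots, -3.14 with thinned spots, -3.43 over all control spots of section 1 and -3.46 on totals without the members. The median ratio in proteoglycan-rich spots, -0.05, ranged from -1.34 to 0.16 in single sections and was -3.28 as a mean over spots, where shallow spots count fully. The genotype difference in the share of collagen XI, 5.68 points, ranged from 1.97 to 14.5 points. Of the 30 nearest genes, 19 stayed with tiles of 1 mm. Other causes were not tested. No paired analysis was possible because the sections were read as coming from the same calluses and no result comes from a test. The shallow Nf1Postn spots limit what can be seen of Col9a2, Col9a3 and Col11a1, whose median per spot there was 0 CPM in section 1.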
